A study of Mus musculus with 47 samples.

Results

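The genes described here are 10 stem cell surface markers, Wnt pathway effectors and a Notch target: Cd44, Cd34, Ly6a, Prom1, Ctnnb1, Lef1, Tcf7, Axin2, Lrp6 and Hes1. They were found as the probe sets whose symbol in the platform annotation was exactly that of the gene, and a gene with several was represented by the one of highest average level. This gave 8 genes with 16 probe sets, out of 18194 genes measured. Ly6a and Tcf7 were not analysed here, because no probe set was named for them alone.

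The levels were measured in primary B cell lymphomas from the lymph nodes of Emu-myc mice, in which the c-Myc transgene is active in the B cell lineage. All cultures also carried retroviral Bcl2 and had been through 48 h of puromycin selection. Bcl2 is an antiapoptotic gene that, per the series' design text, leaves senescence as the main response to DNA damage. Suv39h1 is a histone methyltransferase that places the repressive H3K9 trimethyl mark. Cells were grown on NIH 3T3 fibroblasts irradiated with 20 Gy, and drug-treated cultures received Adriamycin (ADR, doxorubicin, a DNA-damaging drug) at 0.05 µg/ml for 5 days. The groups were Suv39h1 WT lymphomas left untreated (native, n = 14) or given ADR (n = 14), lymphomas labelled Suv39h1- (native and ADR, n = 5 each), and Suv39h1- lymphomas that carry Suv39h1ER (native, ADR, and ADR with 4OHT, n = 3 each). Suv39h1ER is read here as a fusion of the enzyme with an estrogen receptor part that 4-hydroxytamoxifen (4OHT) activates, which is general knowledge of such fusions and not a statement of the labels. The labels call WT ADR and Suv39h1ER ADR 4OHT senescent and the other 5 groups non-senescent. No group received 4OHT alone, so 4OHT and the activated enzyme cannot be told apart.

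In canonical Wnt signalling a Wnt ligand binds a Frizzled receptor and the coreceptor Lrp6, and β-catenin (Ctnnb1) escapes the destruction complex, in which Axin2 is a scaffold. β-catenin then enters the nucleus and joins the DNA-binding factors Lef1 and Tcf7, and Axin2 is itself a target gene that feeds back on the pathway. Cd44, Cd34, Ly6a (Sca-1) and Prom1 (Cd133) are surface proteins used to sort stem and progenitor cells, and Cd44 is also a hyaluronan receptor of activated lymphocytes. Hes1 is a repressor that Notch signalling induces. In B cells Lef1 is best known from precursor stages.

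The windows just upstream of 3 starts are shown because Cd44 and Cd34 rose in the WT lymphomas, and because Lef1 held the only match to the letters that its own protein family binds. They are the 250 bases before a RefSeq start in GRCm38.p6, 5′ to 3′ on the strand of the gene. The search used CTTTGAA and its variants CTTTGAT and also CTTTGTA or CTTTGTT for TCF/LEF factors and GTGGGAA for RBPJ, the DNA-binding partner of Notch, on both strands. Capitals mark a match, which reads as the reverse complement where it lies on the other strand.
Cd44, chr2:102901666-102901915, minus strand: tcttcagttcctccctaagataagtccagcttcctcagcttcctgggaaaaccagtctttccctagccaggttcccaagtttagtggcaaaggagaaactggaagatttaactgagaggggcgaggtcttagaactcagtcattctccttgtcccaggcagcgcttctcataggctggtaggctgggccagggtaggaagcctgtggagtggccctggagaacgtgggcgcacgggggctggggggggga
Cd34, chr1:194938571-194938820, plus strand: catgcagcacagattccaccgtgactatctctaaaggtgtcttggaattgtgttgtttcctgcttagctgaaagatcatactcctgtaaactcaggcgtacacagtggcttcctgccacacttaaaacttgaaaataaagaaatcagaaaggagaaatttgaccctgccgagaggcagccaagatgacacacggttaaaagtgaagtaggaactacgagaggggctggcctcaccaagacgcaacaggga
Lef1, chr3:131156044-131156293, plus strand: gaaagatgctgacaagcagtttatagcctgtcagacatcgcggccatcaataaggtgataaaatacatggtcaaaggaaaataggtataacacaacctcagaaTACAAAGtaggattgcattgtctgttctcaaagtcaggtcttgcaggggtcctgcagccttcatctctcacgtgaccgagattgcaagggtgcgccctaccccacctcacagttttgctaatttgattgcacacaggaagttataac
The Lef1 window belongs to the fourth of its listed starts, which lies inside the gene (chr3:131110297-131224357). It held CTTTGTA on the minus strand, 147 bases before the start. TCF/LEF letters were found in 14.8% of 32851 windows of the same length and RBPJ letters in 5.42%. The table held windows for 7 of the 10 genes, and no other window of these 7 matched either set. A match is a description of the letters, and windows without one say nothing about the factors.

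The mean of the B cell list was 8.57 to 9.19 (log2) on WT native and 6.98 to 9.77 on WT ADR arrays. In single WT lymphomas it changed by -1.89 to 0.57 with ADR. On Suv39h1- arrays it was 7.63 to 9.58 native and 7.15 to 9.43 with ADR. In Suv39h1ER cultures it was 8.02 to 8.71 native, 8.04 to 8.81 with ADR and 8.02 to 8.76 with ADR 4OHT. Array medians ran from 4.32 to 4.43 except for the Suv39h1- 1032 ADR array at 4.07. Over 200 genes that mark single lymphomas, chosen without the lymphomas in question, arrays of 1 lymphoma correlated at a median r of 0.698 and arrays of different lymphomas at -0.0718. The genes were picked for agreement between the native and ADR arrays of the other lymphomas, which raises the value of 0.698. Over all genes, the 2 arrays of a WT lymphoma had a median r of 0.231. The 24 array pairs among WT 2949, 5043, 5766 and 6054 had a median r of 0.453, and the closing section gives results with these averaged. The number 5043 labels both a WT and a Suv39h1ER culture, and 4936 labels both a Suv39h1- and a Suv39h1ER culture. Suv39h1 itself was not analysed here, and its level gives no check of the genotype labels. Markers of fibroblasts rose with ADR in WT: 24 of 26 were called higher, and the list mean ran from 4.11 to 5.21 on native and from 4.78 to 9.06 on ADR arrays. Of 18 macrophage markers 12 rose and of 14 B cell markers 6 fell, while 1 of 16 T cell markers rose and 2 of 12 endothelial markers fell. These counts stand beside 30.2% of all 18194 genes called in either direction in the same comparison. In such mixed RNA, fewer cells of a type and less RNA per cell cannot be told apart.

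In WT lymphomas, Cd44 and Cd34 rose and Hes1 fell under ADR, and the Wnt effectors Lrp6, Ctnnb1, Lef1 and Axin2 and the marker Prom1 did not pass the test. The threshold for a call in limma was 0.05 after Benjamini-Hochberg adjustment over all 18194 genes. That is 3 of 8 genes, where 30.2% of all genes were called in this comparison. In Suv39h1- lymphomas under ADR, limma called 0 of 8 (0.0110% of all genes, 1 of the 8 at an unadjusted p under 0.05). That 1 was Prom1, whose changes in this group went both ways, a spread that the SE pooled over all cultures does not show. In Suv39h1ER cultures limma called 0 of 8 for ADR against native (0.126% of all genes, 2 of the 8 unadjusted) and 0 of 8 for ADR 4OHT against ADR (0.143%, 1 unadjusted). For ADR 4OHT against native it called 1 of 8, Cd44 (2.95% of all genes). The 3 Suv39h1ER comparisons share arrays with each other, and fewer cultures give their tests less power than in WT.

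**Figure D1:**
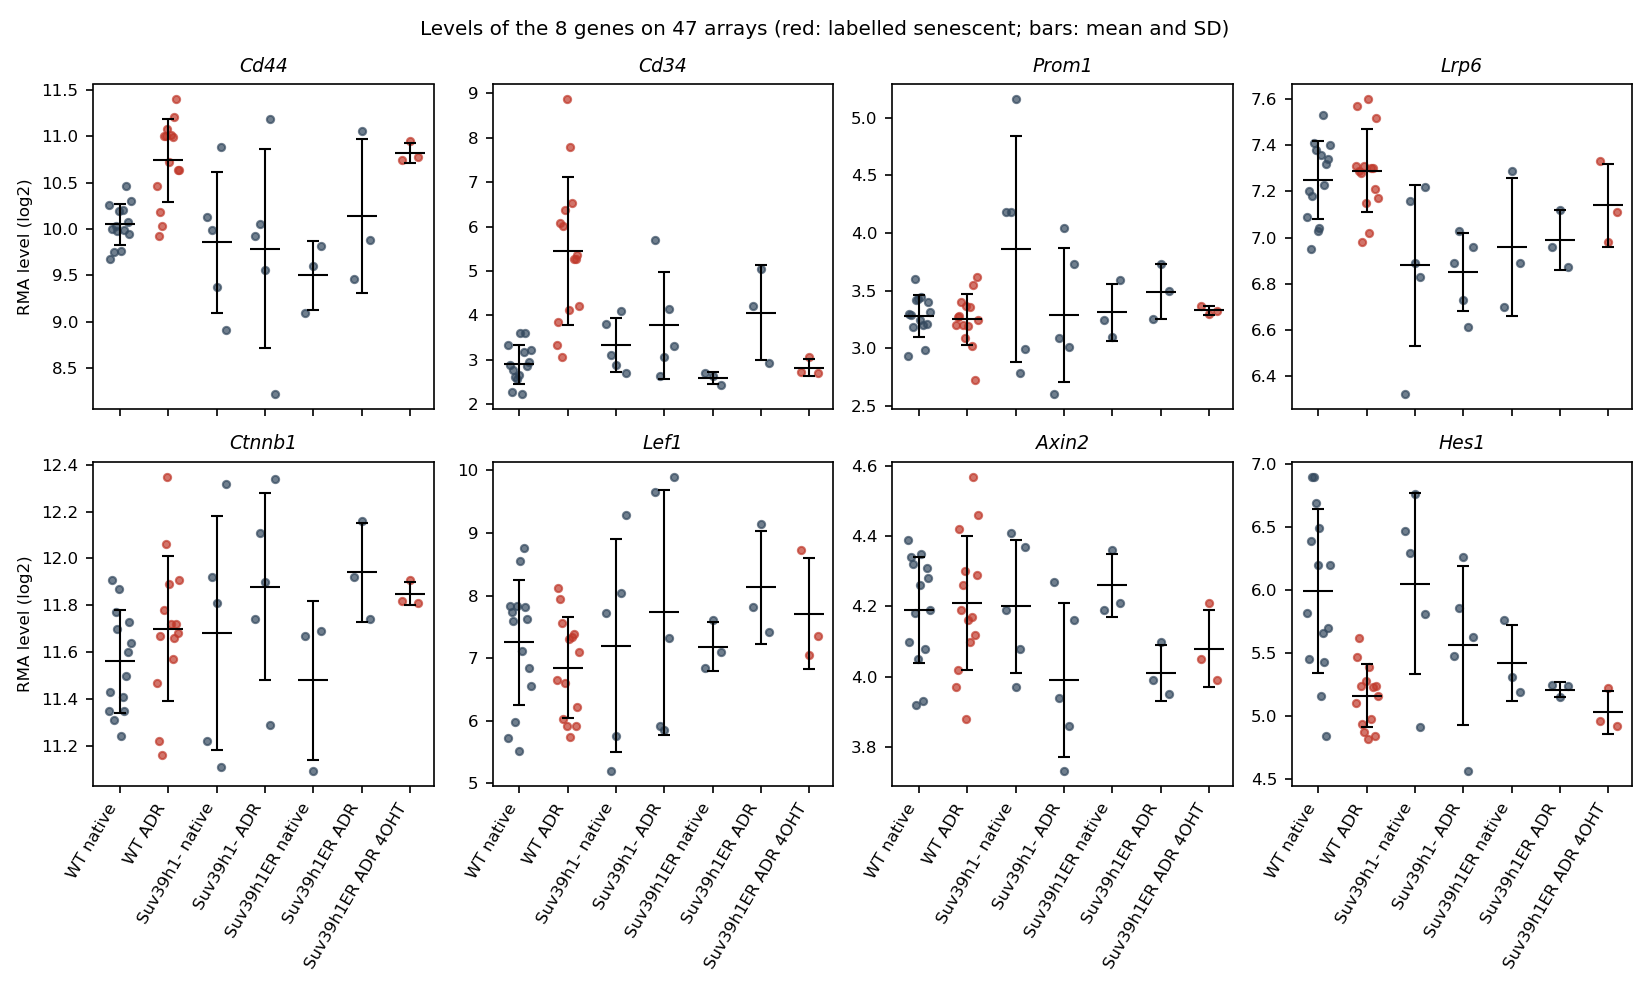
RMA level (log2) of each gene on all 47 arrays, with the mean and SD of each group as bars and arrays labelled senescent in red. Cd44 lies between 10.74 and 10.95 on all 3 Suv39h1ER ADR 4OHT arrays, and Cd34 spreads from 3.05 to 8.87 on the WT ADR arrays.

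Cd44 (gene at chr2:102811141-102901669) rose in every WT lymphoma. WT native levels had a lowest value of 9.68, a median of 10.01 and a highest of 10.46 (log2), and WT ADR levels 9.93, 10.85 and 11.40. The groups overlapped, with 11 of 14 ADR arrays above every native array, and how many of all genes separate as far was not counted. The mean change was 0.69 (SE 0.11, n = 14 pairs, 1.61-fold, limma adjusted p = 3.77e-05), and single lymphomas changed by 0.18 (WT 2581) to 1.31 (WT 7050).

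In the Suv39h1- lymphomas the Cd44 level differed more between lymphomas than between treatments. Native and ADR levels were 10.13 and 9.93 in 5783, 9.99 and 10.05 in 7890, 9.38 and 9.56 in 9250, 10.89 and 11.19 in 1032, and 8.91 and 8.22 in 4936. Of the 5, 3 were higher and 2 lower after ADR, with a mean change of -0.07 (SE 0.19, 95% interval -0.46 to 0.32, limma adjusted p = 0.939). The WT change exceeded the Suv39h1- change by 0.76 (SE 0.22, 95% interval 0.31 to 1.21), which missed the threshold (limma adjusted p = 0.0926, 0.0618 to 0.537 over its alternatives). In that comparison 0 of the 8 genes were called by limma, 3 at an unadjusted p under 0.05, against 0.341% of all genes.

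In the Suv39h1ER cultures, Cd44 stood at 9.10, 9.60 and 9.82 on the native arrays of SuvER-4146, 4936 and 5043. With ADR alone it was 9.46, 11.06 and 9.88 in the same order, and with ADR and 4OHT it was 10.74, 10.95 and 10.78. The 3 arrays with 4OHT lay above all native arrays and close together, and how many of all genes separate in this way was not counted. The mean of the macrophage list was 4.50 to 5.05 on native arrays of these cultures. It was 5.54 to 6.85 with ADR and 5.54 to 5.88 with ADR 4OHT, and its part in Cd44 was not tested. With ADR alone, only the 4936 array was above the native range by a wide margin, and this culture did not rise further with 4OHT. The change from native to ADR 4OHT was 1.32 (SE 0.24, 2.50-fold, limma adjusted p = 0.00550, higher in 3 of 3). The call was lost with the Suv39h1ER arrays alone (adjusted p = 0.111) and without the culture block (0.116). ADR alone against native gave 0.63 (SE 0.24, adjusted p = 0.273) and ADR 4OHT against ADR 0.69 (SE 0.24, adjusted p = 0.227). The 3 changes had an SD of 0.74 and 0.72 in that order, which the SE, pooled over all cultures, does not show. In these cultures only 2 of 9 pairs of arrays of 1 culture correlated above 0.1 in their deviations from the group means.

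Cd44 has 3 other probe sets. The second gave 0.71 in WT (limma adjusted p over all named probe sets 1.28e-05) and 1.07 for ADR 4OHT against ADR (adjusted p = 0.0363), where the brightest was not called. The third gave 0.51 in WT (adjusted p = 0.0168) and 1.09 for ADR 4OHT against native (adjusted p = 0.0931). The fourth was dim, with a mean level of 2.52, and gave -0.05 and -0.08 in the same comparisons.

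**Figure D2:**
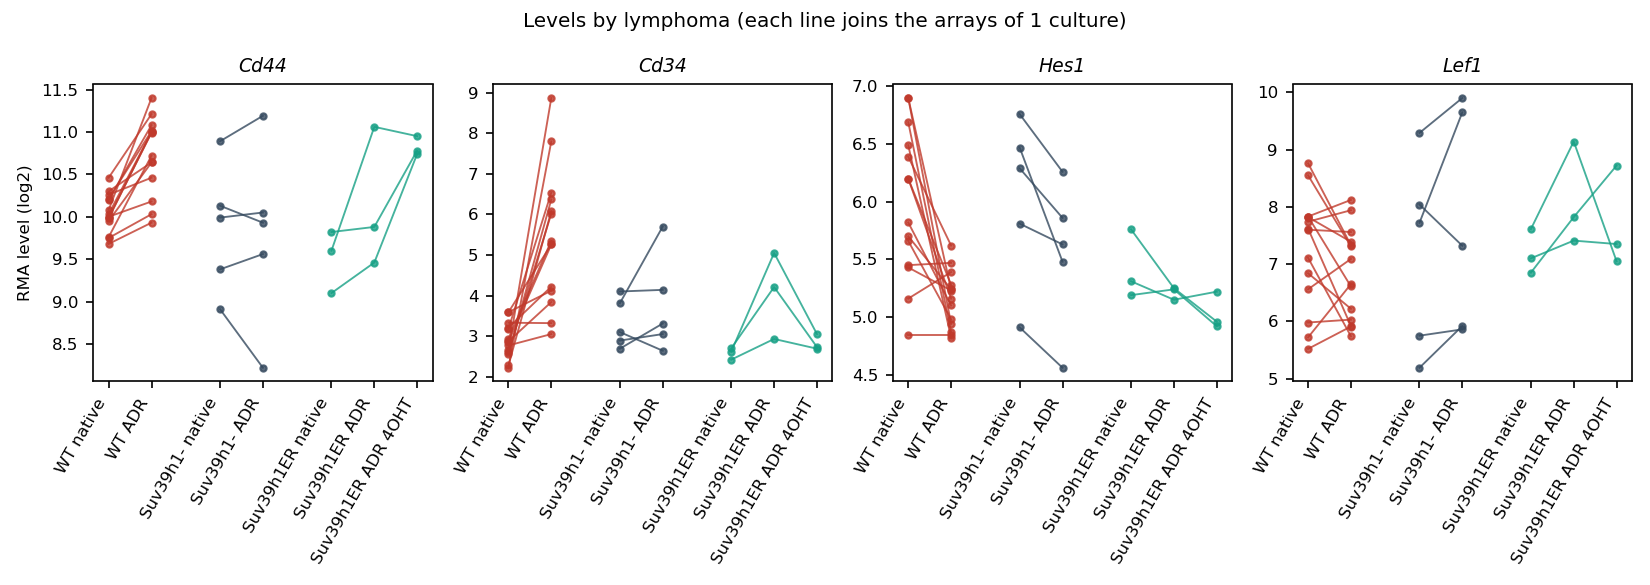
RMA levels (log2) of Cd44, Cd34, Hes1 and Lef1 with 1 line per lymphoma, joining native, ADR and, for Suv39h1ER, ADR 4OHT. All 14 WT lines rise for Cd44 and 12 of 14 fall for Hes1, and the Lef1 lines run both ways.

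Cd34 (chr1:194938821-194961292), a sialomucin of blood stem cells, vessels and stromal cells, had the largest mean change of the 8 genes in WT. WT native levels had a lowest value of 2.22, a median of 2.86 and a highest of 3.59, and WT ADR levels 3.05, 5.31 and 8.87. A total of 12 of 14 ADR arrays lay above every native array, and the share of all genes that separate as far was not counted. The change was 2.53 (SE 0.40, limma adjusted p = 2.71e-05, higher in 13 of 14), with single lymphomas from -0.01 (WT 1467) to 6.22 (WT 403). The native levels were as low as those of the probe sets called dim here, so no fold is given and the change is on the log2 scale of a dim start.

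The Cd34 change moved with the fibroblast list over the 14 WT lymphomas. Its slope was 1.48 per unit of fibroblast list change (95% interval 1.37 to 1.60, limma adjusted p = 1.38e-10), where 18.2% of all genes had a called slope. At a list change of 0 the fitted Cd34 change was -0.19 (95% interval -0.44 to 0.07, adjusted p = 0.373). WT 1467, with a fibroblast list change of -0.07, had a Cd34 change of -0.01 and a Cd44 change of 0.21. WT 403, with the list at 4.19, had 6.22 for Cd34 and 0.88 for Cd44.

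The same measures were less close for Cd44 and Hes1. The Cd44 slope on the fibroblast list was 0.13 (95% interval -0.02 to 0.28, limma adjusted p = 0.251), and its change at a list change of 0 was 0.45 (0.12 to 0.79, adjusted p = 0.0746). On the macrophage list the slope was -0.06 for Cd44 (adjusted p = 0.987) and 0.07 for Cd34 (adjusted p = 0.998). At a macrophage list change of 0, which no lymphoma had since the lowest was 0.33, Cd44 changed by 0.76 (adjusted p = 0.0648) and Cd34 by 2.44 (adjusted p = 0.215). The fits with these covariates called 2143 and 260 genes, and the fit without them 5489.

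**Figure D3:**
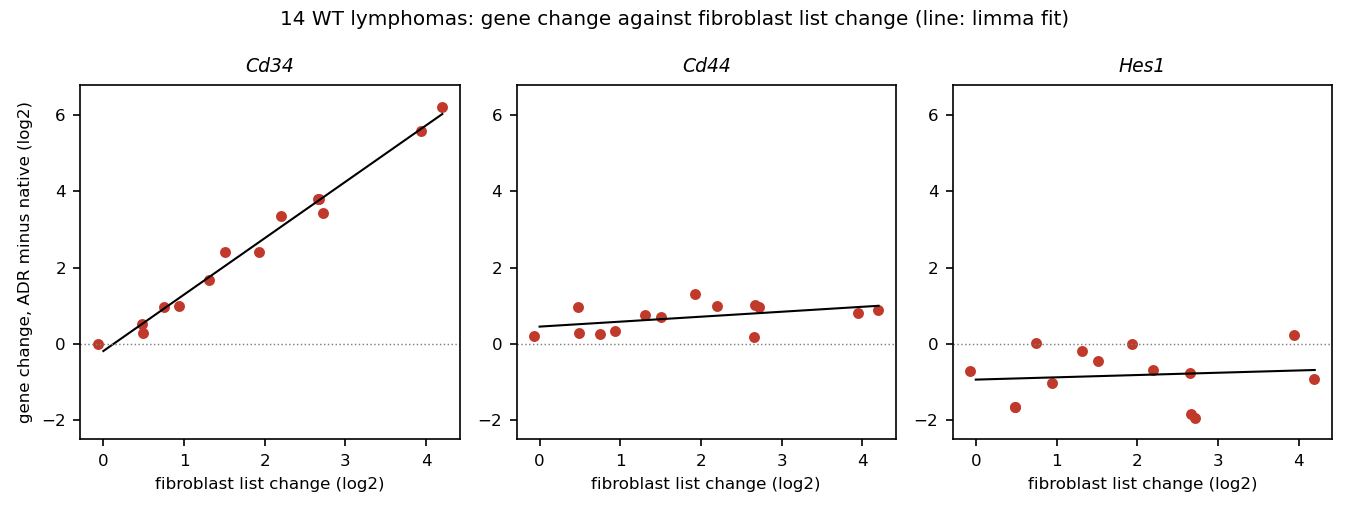
Change from native to ADR (log2) of Cd34, Cd44 and Hes1 against the change of the fibroblast marker list (log2) in 14 WT lymphomas, with the limma line. The Cd34 points follow a line of slope 1.48, and those of Cd44 and Hes1 have slopes of 0.13 and 0.06.

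Outside WT, Cd34 was not called. Native and ADR levels of the Suv39h1- lymphomas were 3.81 and 5.70 in 5783, 3.10 and 2.64 in 7890, 2.89 and 3.05 in 9250, 4.10 and 4.14 in 1032, and 2.69 and 3.31 in 4936. The mean change was 0.45 (SE 0.67, limma adjusted p = 0.871), and the WT change exceeded it by 2.08 (SE 0.78, adjusted p = 0.164). The fibroblast list changed by -0.02 to 0.54 in these 5. In the Suv39h1ER cultures SuvER-4146, 4936 and 5043, Cd34 stood at 2.70, 2.62 and 2.42 on native arrays, at 4.21, 5.05 and 2.93 with ADR, and at 2.73, 3.05 and 2.69 with ADR 4OHT. The ADR arrays were above the native ones in all 3 (1.48, SE 0.87, adjusted p = 0.519), and lower again with 4OHT (-1.24, SE 0.87, adjusted p = 0.619). The fibroblast list moved by 0.50 to 1.76 and by -0.97 to -0.32 in those steps. On the 3 arrays with 4OHT, Cd34 lay between 2.69 and 3.05 while Cd44 lay between 10.74 and 10.95. With ADR alone, the 4936 array had the highest level of both genes in these cultures, 5.05 for Cd34 and 11.06 for Cd44.

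Prom1 (chr5:43993621-44102047), the pentaspan protein Cd133, was dim and did not pass the test in any group. Its WT levels had a lowest value of 2.93, a median of 3.29 and a highest of 3.60 on native arrays, and 2.72, 3.25 and 3.62 with ADR. The change was -0.03 (SE 0.13, 95% interval -0.30 to 0.24, limma adjusted p = 0.904). In Suv39h1- lymphomas the levels went from 4.18 to 2.60 in 5783, from 4.18 to 3.09 in 7890 and from 5.16 to 4.04 in 9250, but from 2.78 to 3.01 in 1032 and from 2.99 to 3.73 in 4936. The mean of -0.57 (SE 0.22, adjusted p = 0.339) hides these opposite directions. Its SE is pooled over all cultures and does not show the SD of these 5 changes, 0.99, against 0.28 in WT. The 3 that went down were the ones with native levels above every WT native array. In the Suv39h1ER cultures all 9 arrays lay between 3.10 and 3.73, and the changes were 0.19 with ADR and 0.02 with ADR 4OHT against native.

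Lrp6 (chr6:134446476-134566913), the Wnt coreceptor, was higher in treated WT than in treated Suv39h1- lymphomas. WT levels had a lowest value of 6.95, a median of 7.28 and a highest of 7.53 on native arrays, and 6.98, 7.29 and 7.60 with ADR, a change of 0.04 (SE 0.08, limma adjusted p = 0.799). The ADR levels of Suv39h1- 5783, 7890, 9250, 1032 and 4936 were 6.89, 7.03, 6.73, 6.61 and 6.96. Of the 14 WT ADR arrays, 12 were above all of these, a count not made for all genes. The difference was 0.44 (SE 0.10, 1.36-fold, adjusted p = 0.00890), the only 1 of the 8 genes called between the treated genotypes, where 12.6% of all genes were called. The second probe set gave 0.27 (adjusted p = 0.304) and did not bear the call.

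Between native arrays the Lrp6 difference was of like size, 0.36 (SE 0.12, limma adjusted p = 0.223), and was not called. There limma called 0 of the 8 genes, 2 at an unadjusted p under 0.05, against 1.09% of all genes. The response difference was 0.08 (SE 0.16, adjusted p = 0.833). Native Lrp6 levels were 6.32, 7.16, 6.89, 6.83 and 7.22 in the same 5 lymphomas, and the lymphoma with the lowest, 5783, was the only 1 whose level was higher after ADR. In the Suv39h1ER cultures SuvER-4146, 4936 and 5043, levels were 6.70, 7.29 and 6.89 native, 6.96, 7.12 and 6.87 with ADR, and 7.33, 6.98 and 7.11 with ADR 4OHT. Changes there were 0.03 with ADR, 0.15 on adding 4OHT (SE 0.18, adjusted p = 0.816) and 0.18 from native to both.

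Ctnnb1 (chr9:120933400-120960507), which encodes β-catenin, was bright on every array. WT levels had a lowest value of 11.24, a median of 11.55 and a highest of 11.91 on native arrays, and 11.16, 11.70 and 12.35 with ADR. The change was 0.15 (SE 0.08, 95% interval -0.01 to 0.31, limma adjusted p = 0.163, higher in 10 of 14). Suv39h1- levels went from 11.22, 11.92, 11.81, 11.11 and 12.32 to 11.74, 12.11, 11.90, 11.29 and 12.34 in 5783, 7890, 9250, 1032 and 4936. All 5 were higher with ADR, by a mean of 0.20 (SE 0.13, adjusted p = 0.626). Suv39h1ER levels were 11.67, 11.09 and 11.69 native, 11.92, 12.16 and 11.74 with ADR, and 11.82, 11.91 and 11.81 with ADR 4OHT. Native arrays lay below both treated groups, by 0.46 (SE 0.17, adjusted p = 0.240) and 0.36 (SE 0.17, adjusted p = 0.267), and neither passed the test. The highest native level, 11.69, was close to the lowest with ADR, 11.74, and how many of all genes separate in this way was not counted. Another, dimmer probe set differed between native WT and Suv39h1- lymphomas by 0.86 (adjusted p = 0.0215), where the brightest gave -0.12 (adjusted p = 0.870). The probe sets of this gene do not report 1 quantity, and no transcript form is named here.

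Lef1 (chr3:131110297-131224357), the nuclear partner of β-catenin, varied widely between lymphomas, with an SD of 1.00 in WT native, 0.80 in WT ADR, 1.70 in Suv39h1- native and 1.96 in Suv39h1- ADR arrays. WT levels had a lowest value of 5.52, a median of 7.61 and a highest of 8.76 on native arrays, and 5.74, 6.87 and 8.12 with ADR. Single changes ran from -1.70 (WT 7050) to 0.94 (WT 1467), with a mean of -0.40 (SE 0.24, limma adjusted p = 0.233, lower in 8 of 14). The second probe set gave -0.62 (adjusted p = 0.0499, lower in 9 of 14). Suv39h1- levels went from 7.72, 5.19, 5.75, 8.04 and 9.29 to 9.65, 5.92, 5.86, 7.32 and 9.90 in 5783, 7890, 9250, 1032 and 4936. The mean was 0.53 (SE 0.40, adjusted p = 0.685), and WT minus Suv39h1- was -0.93 (95% interval -1.89 to 0.02, adjusted p = 0.276). In the Suv39h1ER cultures SuvER-4146, 4936 and 5043, Lef1 was at 6.85, 7.61 and 7.10 native, 7.82, 9.14 and 7.41 with ADR, and 8.72, 7.05 and 7.35 with ADR 4OHT. Adding 4OHT gave 0.90 in SuvER-4146 and -2.10 in 4936, a mean of -0.42 (SE 0.52, adjusted p = 0.826). The 1 of 16 T cell markers that rose in WT and the flat T cell list in Suv39h1- (mean change -0.04) stand beside these values, since T cells also express Lef1, and their part in the result was not tested.

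Axin2 (chr11:108917828-108950783), the feedback target by which Wnt output is often read, was dim and stayed within a narrow range. Its mean level was 4.16, where array medians ran from 4.32 to 4.43 apart from 1 array, and its second probe set averaged 2.71. A flat level of so dim a probe set is not read here as flat Wnt output. WT levels had a lowest value of 3.92, a median of 4.23 and a highest of 4.39 on native arrays, and 3.88, 4.18 and 4.57 with ADR. The change was 0.01 (SE 0.06, 95% interval -0.12 to 0.14, limma adjusted p = 0.909), with 7 lymphomas higher and 7 lower. Suv39h1- levels went from 4.19, 4.41, 3.97, 4.08 and 4.37 to 4.27, 3.94, 3.73, 3.86 and 4.16 in 5783, 7890, 9250, 1032 and 4936 (-0.21, SE 0.11, adjusted p = 0.496). In SuvER-4146, 4936 and 5043 they were 4.19, 4.36 and 4.21 native, 3.99, 4.10 and 3.95 with ADR, and 4.05, 4.21 and 3.99 with ADR 4OHT. The ADR arrays lay below the native ones in all 3 (-0.24, SE 0.14, adjusted p = 0.488).

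Hes1 (chr16:30065357-30067796), the Notch-induced repressor, fell in WT. WT native levels had a lowest value of 4.84, a median of 6.01 and a highest of 6.90, and WT ADR levels 4.82, 5.20 and 5.62. The SD was 0.65 native and 0.25 with ADR, and 10 of 14 native arrays lay above every ADR array. Such a count was not made for all genes. The change was -0.83 (SE 0.15, 1.78-fold lower, limma adjusted p = 0.000141, lower in 12 of 14). Single lymphomas ran from -1.96 (WT 3594) to 0.23 (WT 5560). At a fibroblast list change of 0 the fitted change was -0.94 (95% interval -1.62 to -0.26, adjusted p = 0.0719), and at a macrophage list change of 0 it was -0.47 (adjusted p = 0.544).

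Hes1 was lower with ADR in all 5 Suv39h1- lymphomas too. Levels went from 6.47 to 5.48 in 5783, from 6.29 to 5.86 in 7890, from 6.76 to 6.26 in 9250, from 4.91 to 4.56 in 1032 and from 5.81 to 5.63 in 4936. The mean of -0.49 (SE 0.25, limma adjusted p = 0.517) was not called, and the response difference of -0.34 (95% interval -0.96 to 0.27, adjusted p = 0.558) includes 0. Suv39h1ER levels were 5.76, 5.31 and 5.19 native, 5.25, 5.15 and 5.24 with ADR, and 4.96, 5.22 and 4.92 with ADR 4OHT in SuvER-4146, 4936 and 5043. ADR 4OHT against native gave -0.39 (SE 0.33, adjusted p = 0.660), lower in 3 of 3.

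**Figure D4:**
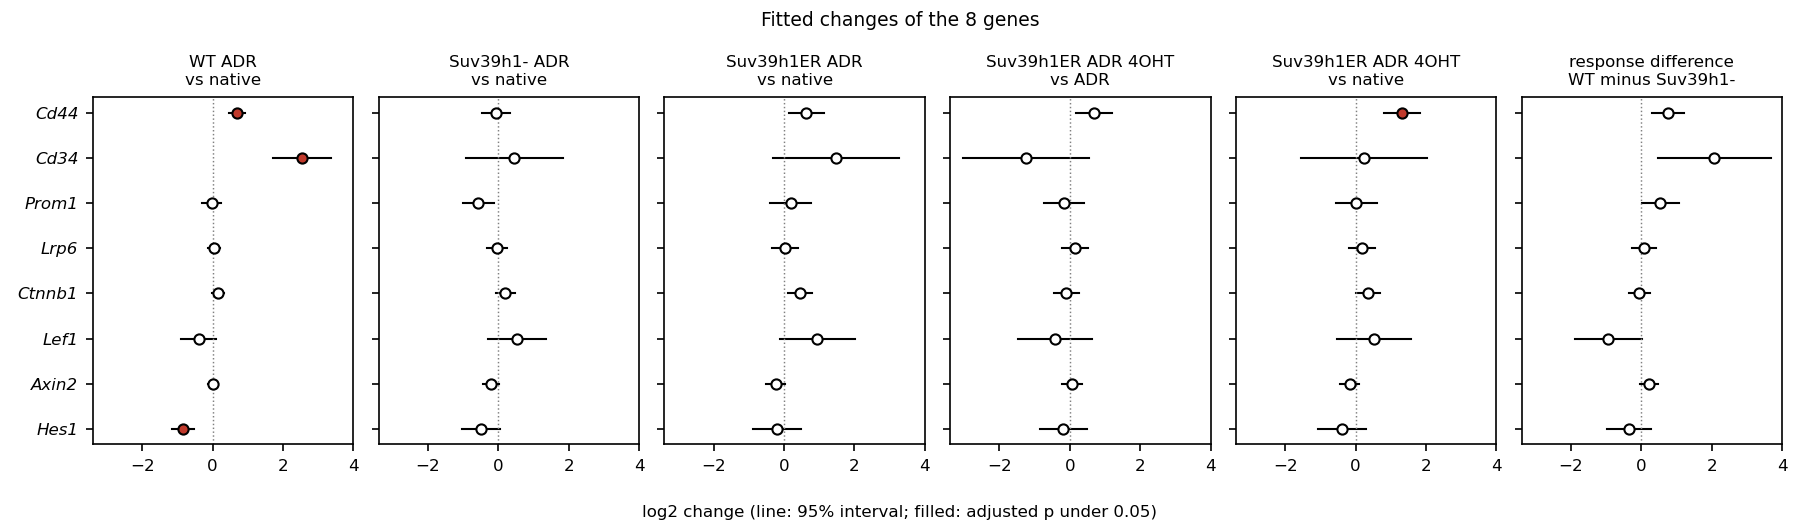
Fitted log2 change of each gene in 5 comparisons within cultures and in the WT minus Suv39h1- response difference, with 95% intervals as lines and filled points at an adjusted p under 0.05. Filled points are Cd44, Cd34 and Hes1 in WT and Cd44 in ADR 4OHT against native, and the response difference has none.

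Among the ADR arrays alone, those labelled senescent were compared with those labelled non-senescent as a description only. The labels tie phenotype to genotype in WT and Suv39h1- lymphomas, and each Suv39h1ER culture has an array on both sides. How many of all genes reach counts like those below was not computed. Cd44 had a lowest value of 9.93, a median of 10.78 and a highest of 11.40 on the 17 senescent arrays, and 8.22, 9.91 and 11.19 on the 8 others. All 17 lay above the median of the others, and so did all 17 for Lrp6 (6.98, 7.29 and 7.60 against 6.61, 6.93 and 7.12). Axin2 was above that median on 16 of 17 (medians 4.17 and 3.97). Cd34 was above it on 12 of 17, and spread from 2.69 to 8.87 on the senescent arrays and from 2.64 to 5.70 on the others. Hes1 had medians of 5.16 and 5.36, and 3 of 17 senescent arrays lay above the median of the others. Ctnnb1 (medians 11.72 and 11.91), Lef1 (7.09 and 7.62) and Prom1 (3.28 and 3.37) had 2, 3 and 3 of 17 above it.

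Tested between the treated genotypes, Cd44 was 0.95 higher in WT than in Suv39h1- lymphomas (SE 0.32, limma adjusted p = 0.0569), just short of the threshold. Leaving out 1 lymphoma at a time gave 0.55 (without Suv39h1- 4936, adjusted p = 0.206) to 1.30 (without Suv39h1- 1032, adjusted p = 0.00596). The Suv39h1- 1032 array is both the brightest for Cd44 of its group and the one with the low array median. Without that lymphoma the Hes1 difference, WT minus Suv39h1-, was -0.65 (adjusted p = 0.00644), against -0.40 with it (adjusted p = 0.160). Ctnnb1, Lef1, Axin2 and Prom1 differed between the treated genotypes by -0.17, -0.88, 0.22 and -0.04, and were not called.

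The group means of Cd44 from the lowest were 9.50 (SD 0.37) in Suv39h1ER native, 9.79 (SD 1.07) in Suv39h1- ADR, 9.86 (SD 0.76) in Suv39h1- native, 10.05 (SD 0.22) in WT native, 10.14 (SD 0.83) in Suv39h1ER ADR, 10.74 (SD 0.45) in WT ADR and 10.82 (SD 0.11) in Suv39h1ER ADR 4OHT. Neighbours in this order differed by less than an SD, apart from the step from Suv39h1ER ADR to WT ADR, which exceeded the SD of WT ADR but not that of Suv39h1ER ADR. For Cd34 the highest mean was in WT ADR, 5.44 (SD 1.67), and the next in Suv39h1ER ADR, 4.06 (SD 1.07). For Hes1 the lowest means were 5.03 (SD 0.17) in Suv39h1ER ADR 4OHT and 5.16 (SD 0.25) in WT ADR, and the highest were 5.99 (SD 0.65) and 6.05 (SD 0.72) in WT and Suv39h1- native.

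The wider Wnt pathway held genes that rose and genes that fell in WT. Of 109 measured genes in 6 lists of the pathway, 16 were called higher and 12 lower with ADR, 25.7% against 30.2% of all genes, with a median change of 0.02. Of 25 genes in the list of ligands and R-spondins, which also holds Wls, 3 rose and 0 fell. Wls, which is no ligand but carries Wnt proteins to the cell surface, rose by 1.79 (SE 0.36, limma adjusted p = 0.000443). The ligand Wnt5a, dim at a mean level of 3.19, rose by 0.52 (adjusted p = 0.00936). Of 19 receptors 2 rose and 3 fell: Fzd2 rose by 0.68 and Fzd1, dim at a mean level of 3.98, by 0.60. Lgr5, an R-spondin receptor of epithelial stem cells, fell by 1.14 (adjusted p = 0.00250). Of 14 secreted inhibitors 1 fell, Dkk3, by 0.43 (adjusted p = 0.0318). These counts stand beside the rise of 24 of 26 fibroblast markers on the same arrays, whose part in them was not tested.

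Inside the cell the lists split as well, and the same 30.2% of all genes is the background of their counts. Of 17 genes of the destruction complex and Dishevelled group, 2 rose (Csnk1d 0.38, Gsk3b 0.26) and 2 fell (Amer1 -0.43, Btrc -0.40). Of 17 TCF partners and cofactors, 3 rose, among them the acetyltransferases Ep300 (0.41, limma adjusted p = 0.000388) and Crebbp (0.40), and 2 fell (Smarca4 -0.37, Cby1 -0.36). Of 17 genes often listed as Wnt targets, 6 rose and 4 fell, with a median of 0.11. The largest were Fosl1, an AP-1 factor (1.80, SE 0.28, adjusted p = 1.94e-05), Plaur, the urokinase receptor (1.36, adjusted p = 1.97e-05), Birc5, which encodes the mitotic protein survivin (-2.09, SE 0.23, adjusted p = 3.01e-07), and Tnfrsf19 (-1.01, adjusted p = 0.0310).

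In the other comparisons within cultures, where few genes of any kind were called, limma called 0 of 109 in each of the Suv39h1- ADR, Suv39h1ER ADR and both ADR 4OHT comparisons, and 0 for the response difference. The shares of all genes called were 0.0110%, 0.126%, 0.143% (4OHT against ADR), 2.95% (4OHT against native) and 0.341%. At an unadjusted p under 0.05 these comparisons had 16, 9, 8, 7 and 27 of the 109 genes, and 1885, 2240, 2268, 2960 and 3424 of all 18194. Between treated WT and Suv39h1- lymphomas 4 were higher and 2 lower in WT, 5.50% against 12.6% of all genes. The receptor Fzd8 (0.64, limma adjusted p = 0.000673), Dvl3 (0.53), Sost (0.49) and Tcf7l1 (0.39) were higher in WT. Of these, Fzd8, Dvl3 and Sost were dim, at mean levels of 3.98, 4.18 and 3.62. Znrf3, which removes Frizzled receptors from the surface (-0.90, adjusted p = 0.0285), and Birc5 (-1.48, adjusted p = 0.0290) were lower. Between native lymphomas 1 of 109 was called, Btrc, higher in WT by 1.12 (adjusted p = 0.0103).

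The Notch list, around Hes1, had 8 of 26 genes higher and 3 lower in WT, where 30.2% of all genes were called. Psen2, a γ-secretase subunit that cleaves Notch, rose by 1.15 (SE 0.16, limma adjusted p = 7.98e-06), and Rbpj rose by 0.63 (adjusted p = 0.00783). The Notch target Nrarp fell by 0.66 (adjusted p = 3.90e-06) and the ligand Jag2 by 0.73 (adjusted p = 0.000345). Notch2 was the 1 gene of this list called in ADR 4OHT against native, higher by 0.85 (SE 0.19, adjusted p = 0.0186), against 2.95% of all genes. Ncstn, another γ-secretase subunit, was higher in WT than in Suv39h1- lymphomas both native (0.76, adjusted p = 0.0405) and with ADR (1.08, adjusted p = 2.59e-05).

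Of 26 other blood stem and progenitor genes, 6 rose and 3 fell in WT, again beside 30.2% of all genes. The 24 of 26 fibroblast markers that rose on the same arrays stand beside these counts, and their part in them was not tested. Procr, the endothelial protein C receptor used to sort blood stem cells, rose by 2.15 (SE 0.35, limma adjusted p = 3.71e-05) and Cd9 by 1.61 (adjusted p = 0.00239). Myb, a factor of progenitor growth, fell by 1.51 (adjusted p = 0.00894) and Gfi1 by 1.17 (adjusted p = 0.00783). Ly6e, a relative of Ly6a, was higher in WT than in Suv39h1- lymphomas before (1.33, adjusted p = 4.16e-07) and after ADR (1.18, adjusted p = 0.000417). Of 12 pluripotency genes 1 was called in WT, Klf4, higher by 2.61 (SE 0.34, adjusted p = 2.74e-06). Klf2 was lower in ADR 4OHT than in native Suv39h1ER cultures (-1.81, limma adjusted p = 0.0471).

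Over all 47 arrays, which share lymphomas and treatments, the genes most like Cd34 were Cavin1 (Pearson r = 0.980), Cttn (0.979) and Rhox5 (0.978). Those most like Cd44 were Slc31a2 (0.876), Rab31 (0.872) and Prr13 (0.853). For Hes1 they were Eif4b (0.717), Cdc25b (0.700) and Ets1 (0.699), and for Lef1 Scn8a (0.757), Ppp1r16b (0.748) and Ankrd13c (0.747). The leading genes were Zfp711 for Prom1 (0.745), Kat6a for Lrp6 (0.753), Klhl11 for Ctnnb1 (0.742) and Il22ra2 for Axin2 (0.603). Among the 8 genes themselves, the pair most alike was Cd44 with Cd34 (r = 0.556) and the most opposed Cd44 with Hes1 (-0.523). The 4 Wnt effectors did not vary together: Lrp6 with Axin2 had the highest r of their pairs (0.219), and Ctnnb1 with Lef1 had -0.0670.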

How the data were processed

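Total RNA (3 µg per array, per the labels' protocols) from 47 samples of 22 cultures was measured on Affymetrix arrays. The submitters' processing notes name RMA, oligo and R 3.5.0 for the deposited values, which are log2 levels per probe set. The sources used here do not say whether normalisation spanned the whole set of arrays. Of 45101 probe sets, 34958 carry 1 gene symbol in the platform annotation, 932 several and 9211 none here. The brightest probe set per symbol gave 18194 genes, with no filter on dim genes. The lowest value was 0.308 and the highest 15. Precision is limited by how many arrays there are.

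Within-culture changes came from 1 limma fit (version 3.58.1, moderated by eBayes, under R 4.3.3) of all 47 arrays that held the 22 cultures as fixed blocks. The pairing comes from the series' design text, which describes matched pairs. The arrays of a culture correlated above 0.1, in their deviations from the group means, in 10 of 14 WT, 5 of 5 Suv39h1- and 2 of 9 Suv39h1ER pairs. WT and Suv39h1- lymphomas were compared over 19 arrays per treatment without a block. Tests were two-sided, p-values were adjusted by Benjamini-Hochberg over all genes, and a gene was called under 0.05. The other probe sets of a gene were adjusted over all named probe sets. Nothing but the lymphoma numbers says that replicates are separate animals, so p-values measure the spread among these cultures only. For within-culture changes this is the spread of the changes, pooled over all 22 cultures, and between genotypes it is that of the levels. The SE of a small group of changes thus does not show that group's own spread.

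The 10 genes and the gene lists were chosen with earlier results of these data known. Named genes were all 8 measured members, up to 2 called genes per direction in each list, and the 3 genes most correlated with each member. The fits were tested on simulated data. Alternatives were the block, the arrays fitted, the prior, a filter on dim genes, centring, averaging alike lymphomas, the fibroblast list as a covariate, other probe sets and leaving out each lymphoma. A macrophage covariate and an average of the alike WT lymphomas alone were added after seeing the data. Promoter windows and gene positions are from RefSeq, GRCm38.p6.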

Additional observations from a re-analysis of the deposited data

Results flagged for a closer look

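Lrp6 changed by 0.57 (log2) with ADR in Suv39h1- lymphoma 5783, while the other 4 Suv39h1- lymphomas changed by -0.26 to -0.13, which put it apart from the rest by Dixon's criterion for 5 samples. Of 24 groups of values tested in this way, 1 stood out, and chance gives about 1 in 20. The same lymphoma had the lowest native Lrp6 level of its group, 6.32, and its ADR level of 6.89 lay inside the range of the others, 6.61 to 7.03. Its changes were also the highest of the 5 for Cd34 (1.89) and Lef1 (1.93) and the lowest for Prom1 (-1.58) and Hes1.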

How the results depend on the processing

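Of 1152 alternative values for the 8 genes, 1064 kept direction and side of the threshold. A further 66 changed sign with neither value called, 9 lost a call and 9 gained one. The other 4 changed sign with a call on a side: Cd44 by the fourth and dim one of its probe sets in WT (-0.05) and in ADR 4OHT against native (-0.08), Cd34 in WT at a fibroblast list change of 0 (-0.19), and Ctnnb1 between native genotypes by the third of its probe sets (0.86). Unless the alternative tests fewer genes or samples, the cause was not tested.

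Without the replicate block, the pairing by culture, Cd44 from native to ADR 4OHT was 1.32 with an adjusted p of 0.116 and so not called, and no other call of the 8 genes changed. The counts of genes called moved to 11 (Suv39h1- ADR), 13 (response difference), 2 (Suv39h1ER ADR), 16 (ADR 4OHT against ADR) and 267 (ADR 4OHT against native). With only the genotypes compared in the fit they were 0, 40, 2, 0 and 12 in the same order, and Cd44 in ADR 4OHT against native was not called (adjusted p = 0.111). With an intensity trend and a robust prior, they were 12, 28 and 7 for Suv39h1- ADR, the response difference and ADR 4OHT against ADR. With only brighter genes, which leaves out Cd34, Prom1 and Axin2, they were 0, 122 and 43, and Cd44 was called between treated genotypes (0.95, adjusted p = 0.0366). With WT 2949, 5043, 5766 and 6054 averaged to 1 lymphoma and Suv39h1- 7890 and 9250 to another, they were 1, 0 and 11, and 939 between treated genotypes. The Suv39h1- pair had a median r of only 0.0449. With the WT average alone, chosen after seeing the data, they were 2, 120 and 13, and 1874. With array median centring the response difference had 152, and Hes1 was called between treated genotypes (-0.51, adjusted p = 0.0425).

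In WT, 2143 genes were called at a fibroblast list change of 0 and 260 at a macrophage list change of 0, in fits of the 14 WT changes alone. Cd44 (0.45 and 0.76) and Hes1 (-0.94 and -0.47) kept their sign there but lost their call, as did Cd34 with the macrophage list (2.44). Genes not called changed sign as follows. With the fibroblast covariate Prom1 was 0.14 and Axin2 -0.01, and with the macrophage covariate Prom1 was 0.12, Lrp6 -0.03 and Axin2 -0.03. Under centring, Suv39h1- Cd44 was 0.01 and Lrp6 0.04, and the Lrp6 response difference was -0.02. With only the WT lymphomas averaged, Axin2 was -0.02 in WT and 0.00 between native genotypes, and Lef1 -0.20 there. With both averages, WT Axin2 was -0.02, native Lef1 -0.64 and Hes1 0.02, and treated Prom1 0.01 between genotypes. By second probe sets, Axin2 was -0.01 in WT, 0.19 in Suv39h1-, -0.20 for the response difference, and 0.12 native and -0.08 treated between genotypes. Likewise Lrp6 was 0.00 in WT and -0.24 for Suv39h1ER ADR, Lef1 -0.08 for ADR 4OHT against native, and Ctnnb1 0.00 for the response difference, 0.11 native and 0.12 treated. The third Ctnnb1 probe set gave -0.04 in WT, -0.02 in Suv39h1- and 0.84 treated, and the fourth of Cd44 -0.05 for Suv39h1ER ADR and -0.02 for ADR 4OHT against ADR. The second Lrp6 probe set lost the call between treated genotypes (0.27), the third of Cd44 gained it (1.39, adjusted p = 0.0370), and the second of Lef1 gained it in WT (-0.62).

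Leaving out 1 lymphoma at a time cost none of the calls among the 8 genes. Counts of genes called ran from 0 (without WT 7050) to 258 (without WT 2949) for the response difference, 138 to 316 between native and 1227 to 3389 between treated genotypes, 0 to 12 for Suv39h1- ADR, 4 to 109 for Suv39h1ER ADR, 1 to 56 for ADR 4OHT against ADR and 90 to 326 for ADR 4OHT against native. Ranges that crossed 0 or the threshold were -0.08 to 0.00 (Prom1), 0.00 to 0.08 (Lrp6) and -0.02 to 0.05 (Axin2) in WT, -0.16 to 0.08 (Cd44) and -0.19 to 0.02 (Lrp6) in Suv39h1-, and -0.10 to 0.03 (Ctnnb1) for the response difference. Between native genotypes they were -0.05 to 0.44 (Cd44), -0.26 to 0.04 (Ctnnb1), -0.45 to 0.57 (Lef1), -0.07 to 0.04 (Axin2) and -0.34 to 0.12 (Hes1). Between treated genotypes they were 0.55 to 1.30 (Cd44), -0.22 to 0.14 (Prom1) and -0.65 to -0.23 (Hes1). In Suv39h1ER cultures they were -0.04 to 0.33 (Prom1) and -0.09 to 0.12 (Lrp6) for ADR, -1.08 to 0.42 (Lef1) for ADR 4OHT against ADR, and -0.07 to 0.17 (Prom1), -0.05 to 0.42 (Lrp6) and -0.15 to 1.06 (Lef1) for ADR 4OHT against native.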
